A study of Arabidopsis thaliana with 8 samples.

Results

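Among the transcripts of the Arabidopsis thaliana shoot apex, a set of 40 genes was analysed whose signals were at least 4-fold higher at 26 °C than at 22 °C in each of 4 genotypes, and the question was how genotype altered their levels. The members were chosen from 13230 probe sets of the ATH1 GeneChip with a single matching gene, the _s_at and _x_at classes being left out. Each had a signal of 100 or more on all 4 arrays at 26 °C and a log2 ratio of 26 °C to 22 °C of 2 or more in every genotype, with signals under 10 set to 10. Of 44 probe sets that met these values, 4 belonged to 12 genes left out by name, which gave the 40 members. The temperature ratios and the signals at 26 °C therefore chose the genes, and the temperature ratios are given below as a description. The signals are also compared between genotypes within a temperature, and the p-values of those comparisons take no account of the choice. The rule treated the 4 genotypes alike, and the ratios between genotypes were not used in it.

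The mutants were the double mutant as2-1 rh10-1 and the single mutants as2-1 and rh10-1, and Col-0 was the wild type. Each was grown at 26 °C and at 22 °C in long days (16 h light), and shoot apices with leaf primordia were collected at 15 days. The paper's array methods do not name the growth substrate. There was 1 array per genotype and temperature, 8 in all, so no single ratio had a replicate check and precision is limited by the small number of arrays. All lines were in the Col-0 cultivar, the as2-1 line having been outcrossed to Col-0. The rh10-1 allele is recessive and was found in a screen for enhancers of as2-1, and it stood here as a single allele. The arrays of the 2 temperatures were separate sets, so that growth temperature and any difference in harvest or hybridisation cannot be told apart.

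AS2 is a nuclear protein that acts with AS1 to repress genes of the lower leaf side and KNOX homeobox genes while a leaf is being formed. RH10 is a DEAD-box RNA helicase of the nucleolus, the site where precursors of ribosomal RNA are processed and ribosome subunits are put together. Moderately warm growth acts in Arabidopsis through the photoreceptor phytochrome B, the clock protein ELF3 and the PIF transcription factors, a pathway separate from the heat shock response. Sugar supply and demand also move with temperature, and the SnRK1 kinase raises many genes of catabolism and autophagy when sugars are low.

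The signals of the 8 arrays had been scaled to 1 level, with medians of 76.7 to 79.9 at 26 °C and 69.7 to 76.5 at 22 °C. Of 12 markers of the shoot apex and leaf primordia, 4 could be matched to a single-gene probe set in the annotation used here. Others, such as STM and KNAT1, could not, although the paper reports array results for STM and BP/KNAT1. Genes of a list are called measured below where they could be matched. The polarity genes YAB3 and PHV were between 214.2 and 508.1 on all 8 arrays, whereas CLV3 and UFO, each expressed in a few cells of the meristem, did not exceed 56.5. Of the 4 markers of expanded leaf, 3 were measured (RCA, LHCB4.1 and LHCB4.2), at 1531.4 to 9245.0. Genes of photosynthesis thus gave strong signals on every array, whereas the root hair gene EXPA7 was between 1.0 and 11.6. None of 7 floral markers could be named.

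The members' levels at 26 °C spanned a wide range. The median signal of the 40 genes was 767.6 in as2-1 rh10-1 (182.2 to 4419.1), 717.2 in as2-1 (106.6 to 3993.0), 503.4 in rh10-1 (101.1 to 3377.7) and 501.0 in Col-0 (101.7 to 2121.0). At 22 °C the medians were 78.3 in as2-1 rh10-1, 62.0 in as2-1, 67.0 in rh10-1 and 64.5 in Col-0, and 20 of the 40 genes stayed under 100 on all 4 arrays. In 5 members, AT2G37130, AT1G62510, AT2G15880, AT3G52480 and AT3G20340, a signal was under 10 on some array at 22 °C, so that their ratios depend on the floor.

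Of the 40 genes, 4 carry a symbol in the annotation used here. ATL8 belongs to a family of RING-type proteins that include ubiquitin ligases, AKINBETA1 is a beta subunit of the SnRK1 kinase, ATG8B is a ubiquitin-like protein attached to autophagosome membranes, and EXPA8 is an expansin, a protein that loosens the cell wall. The others are protein-coding genes given here by their locus codes, with no role stated. The members were 40 distinct genes and none had a second probe set of its own. No member adjoined another in gene order, and 1 pair lay within 10 genes of each other (AT2G15880 and AT2G15960, 9 genes apart).

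At the limit of the choice, the smallest of the 4 log2 temperature ratios was 2.0 for ATL8, 2.02 for AT1G52100 and 2.06 for AT4G05150. Just outside it, AT1G52710 and AT3G11930 had a smallest ratio that also rounded to 2.0, and AT2G35820 had 1.98. Membership at the limit therefore turned on differences far smaller than the residual spread of the members. The residual SD of the members about genotype and temperature was 0.501 on the log2 scale. With 1 array per condition, it holds differences between genotypes in temperature response together with variation between arrays.

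At 26 °C the set was higher in the double mutant than in Col-0. The log2 ratio of as2-1 rh10-1 to Col-0 had a median of 0.73 over the 40 genes (a 1.66-fold difference), against -0.03 over the 6506 probe sets that reached 100 on at least 1 of the 8 arrays and were tested. In as2-1 the median was 0.37, against 0.00 over all tested, and in rh10-1 it was 0.18, against 0.02. Signals were above Col-0 for 35 of the 40 genes in the double mutant, for 33 in as2-1 and for 26 in rh10-1. All 3 ratios share the 1 Col-0 array of that temperature.

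**Figure D1:**
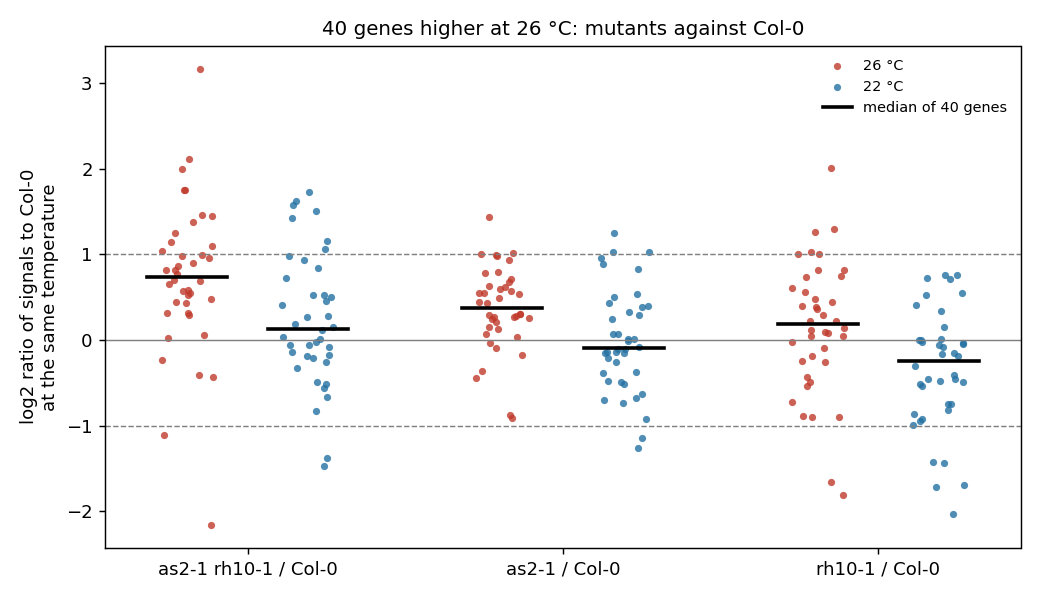
Log2 ratio of signals of each mutant to Col-0 at the same temperature (vertical axis) for the 40 genes, 1 point per gene, at 26 °C (red) and 22 °C (blue), with the median as a black bar and dashed lines at 2-fold. The medians at 26 °C were 0.73 for as2-1 rh10-1, 0.37 for as2-1 and 0.18 for rh10-1, and those at 22 °C were 0.13 for as2-1 rh10-1, -0.09 for as2-1 and -0.25 for rh10-1.

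A difference of 2-fold or more from Col-0 was most frequent in the double mutant. In the double mutant at 26 °C, 12 of the 40 genes (30.0%) were at least 2-fold higher than in Col-0, where 5.69% of all tested probe sets were, and 2 were at least 2-fold lower, where 5.87% of all tested were. The 12 were AT2G37130, AT3G49790, AT2G15880, ATL8, AT1G80180, AT5G42680, AT3G20340, AT5G57340, AT3G52480, AT2G15960, AT4G05150 and AT1G32700, and the 2 were AT1G12080 and EXPA8. Among the 4639 probe sets with 100 or more on all 4 arrays at 26 °C, as the rule asks of the members, 3.69% were at least 2-fold higher and 3.04% lower.

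The single mutants gave fewer such genes. In as2-1, 3 genes (AT1G12080, AT5G57340 and AT2G14900) were at least 2-fold higher at 26 °C, where 1.12% of all tested were, and 0 were 2-fold lower, where 1.44% were. The count of higher genes in as2-1 was 5 under quantile normalization and 5 under median centring. In rh10-1, 5 genes (AT2G37130, AT4G38540, AT5G61820, AT1G67865 and ATL8) were at least 2-fold higher, where 2.67% were. The 2 genes at least 2-fold lower in rh10-1 were AT1G12080 and AT1G52100, where 2.57% of all tested were.

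Comparisons that leave out the Col-0 array also placed the double mutant highest. At 26 °C the median log2 ratio of as2-1 rh10-1 to rh10-1 was 0.68, and that of as2-1 rh10-1 to as2-1 was 0.40, where both were -0.02 over all tested probe sets. The highest of the 4 signals was that of as2-1 rh10-1 for 24 of the 40 genes, that of as2-1 for 11, that of rh10-1 for 5 and that of Col-0 for 0. Over all tested probe sets the double mutant was the highest in 29.6% and Col-0 in 24.4%. Conversely the lowest signal was that of as2-1 rh10-1 for 3 genes, as2-1 for 5, rh10-1 for 12 and Col-0 for 20, where Col-0 was the lowest in 25.8% of all tested.

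**Figure D2:**
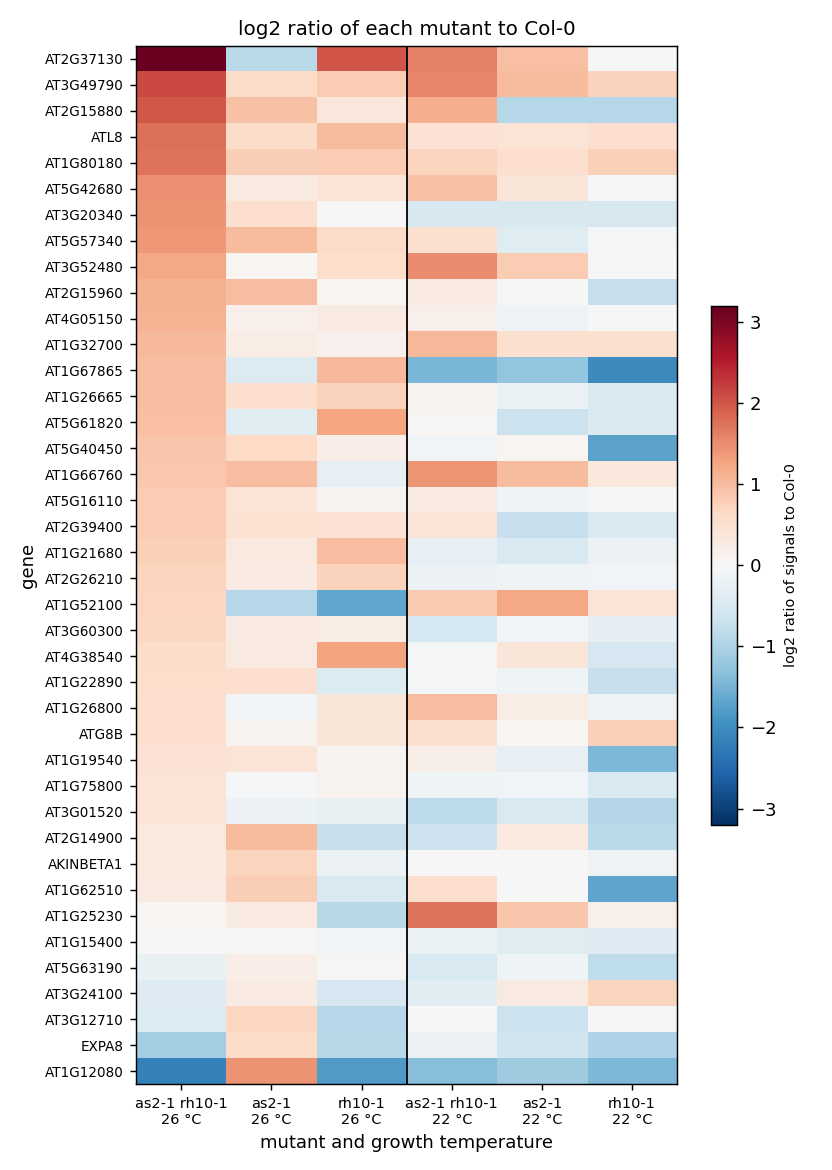
Log2 ratio of each mutant to Col-0 for the 40 genes (rows, ordered by the double mutant at 26 °C), with the mutants at 26 °C in the left 3 columns and at 22 °C in the right 3. Red is higher and blue lower than Col-0. The first column runs between 3.16 for AT2G37130 and -2.16 for AT1G12080 and is above 0 in 35 rows, and the rh10-1 column at 22 °C is above 0 in 10.

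When genotype and temperature were fitted together with limma over the 8 arrays, no member passed an adjusted p of 0.05 for any mutant, and neither did any other of the 6506 probe sets (0.0% called in each direction and mutant). At an unadjusted p under 0.05, 16 members were higher and 1 was lower in as2-1 rh10-1 (40% and 2.5%), where 3.92% of all tested were higher and 4.47% lower. For as2-1 the numbers were 4 higher and 0 lower, where 1.09% and 0.784% of all tested were. For rh10-1 they were 4 higher and 4 lower, where 3.38% and 3.83% were. The member with the smallest adjusted p in the double mutant was AT3G49790, with a log2 ratio to Col-0 over both temperatures of 1.84 ± 0.291 (SE, adjusted p = 0.132).

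The effect of each mutation within a temperature was then estimated over both backgrounds, that is rh10-1 against Col-0 together with as2-1 rh10-1 against as2-1, and likewise for as2-1. For rh10-1 at 26 °C limma called 4 of the 40 genes higher, where 1.48% of all tested were called, and 2 lower, where 1.77% were. The higher genes were AT2G37130, AT5G61820, ATL8 and AT3G49790, and the lower ones AT1G12080 and AT3G12710. For as2-1 at 26 °C 0 members were called in either direction (0.0154% of all tested higher, 0.0615% lower), although at an unadjusted p under 0.05 15 were higher and 0 lower, where 5.5% and 6.96% of all tested were. The fit had 2 residual degrees of freedom, and the spread was moderated over all probe sets.

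AT2G37130 had the widest differences between genotypes in the set. Its signal at 26 °C was 2203.9 in as2-1 rh10-1 and 984.8 in rh10-1, with 134.3 in as2-1, against 245.8 in Col-0. Both arrays with the rh10-1 mutation lay far above both arrays without it, and the as2-1 array was the lowest. The rh10-1 effect at 26 °C was 3.02 ± 0.425 on the log2 scale (SE, limma adjusted p = 0.00754), made up of 2.0 in the wild-type background and 4.04 in the as2-1 background. At 22 °C the signals were 30.8 in as2-1 rh10-1, 19.4 in as2-1, 5.4 in rh10-1 and 3.0 in Col-0, near or under the floor.

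ATL8 was ordered by the number of mutations. The signals at 26 °C were 781.7 in as2-1 rh10-1, 345.9 in as2-1, 465.0 in rh10-1 and 232.2 in Col-0. Each mutation went with a higher signal in both backgrounds, and the double mutant departed by 0.17 on the log2 scale from the sum of the single mutants. The rh10-1 effect was 1.09 ± 0.217 (SE, limma adjusted p = 0.0281), and that of as2-1, 0.66, had an adjusted p of 0.302. At 22 °C the 4 signals lay between 58.0 and 84.9, with Col-0 the lowest.

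AT3G49790 was highest in the double mutant and lowest in Col-0 at both temperatures. It had 572.8 in as2-1 rh10-1, 204.2 in as2-1, 233.1 in rh10-1 and 132.9 in Col-0 at 26 °C, and the double mutant was 2.11 above Col-0 on the log2 scale. At 22 °C it had 68.3 in as2-1 rh10-1, 46.7 in as2-1, 38.1 in rh10-1 and 23.0 in Col-0. The single mutants lay close together in between. The rh10-1 effect at 26 °C was 1.15 ± 0.268 (SE, limma adjusted p = 0.0483), at the edge of the threshold.

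AT5G61820 separated by the rh10-1 mutation alone. Its signals at 26 °C were 890.9 in as2-1 rh10-1 and 1096.9 in rh10-1, against 356.1 in as2-1 and 458.5 in Col-0. The rh10-1 effect was 1.29 ± 0.265 (SE, limma adjusted p = 0.0299), with similar sizes in the wild-type and as2-1 backgrounds (1.26 and 1.32). At 22 °C the 4 signals lay between 62.3 and 102.4, with no separation by rh10-1.

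AT1G12080 went the opposite way. Its signal at 26 °C was 295.5 in as2-1 rh10-1, 3573.7 in as2-1, 377.4 in rh10-1 and 1318.4 in Col-0. It fell with rh10-1 by 2.70 on the log2 scale (SE 0.388, limma adjusted p = 0.00754), by 1.80 against Col-0 and by 3.60 against as2-1. The as2-1 array was the highest and the 2 arrays with rh10-1 the lowest, so that as2-1 alone stood 1.44 above Col-0 while the double mutant stood -2.16 from it. At 22 °C all 3 mutants, at 66.4 for as2-1 rh10-1, 77.9 for as2-1 and 64.0 for rh10-1, were below the 172.0 of Col-0.

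AT3G12710 fell with rh10-1 at 26 °C to a smaller degree. The signals were 550.5 in as2-1 rh10-1 and 399.5 in rh10-1, against 1193.9 in as2-1 and 745.7 in Col-0, a rh10-1 effect of -1.01 ± 0.228 (SE, limma adjusted p = 0.0441). EXPA8 and AT2G14900 had the same order of rh10-1 below its background without passing the threshold. EXPA8 had 232.5 in as2-1 rh10-1, 758.8 in as2-1, 271.1 in rh10-1 and 502.9 in Col-0, with a rh10-1 effect of -1.30 and an adjusted p of 0.0716.

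**Figure D3:**
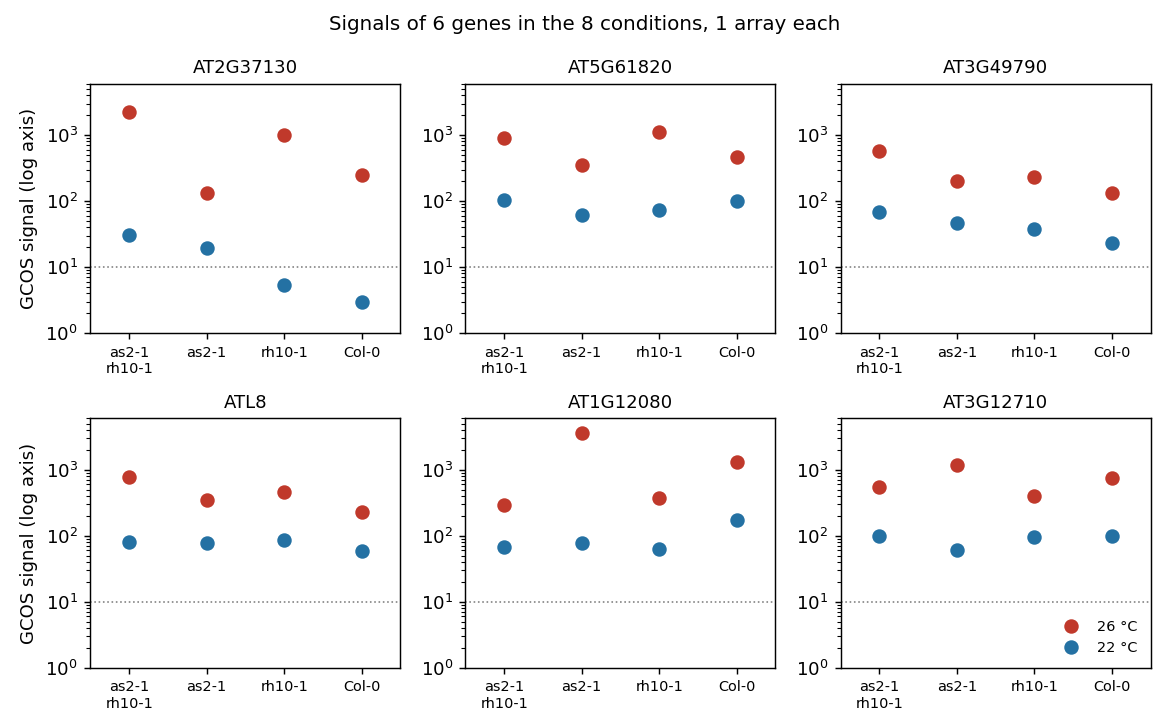
Signals on a log axis of the 6 genes that limma called for rh10-1 at 26 °C, 1 array per genotype (horizontal axis) at 26 °C (red) and 22 °C (blue), with a dotted line at the floor of 10. In the warm the as2-1 rh10-1 and rh10-1 points lie above as2-1 and Col-0 for AT2G37130, AT5G61820, AT3G49790 and ATL8, and below them for AT1G12080 and AT3G12710.

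These 6 calls depended on the fit. With no filter on signal limma called 0 of the 40 genes in either direction (adjusted p between 0.377 for ATL8 and 0.416 for AT5G61820), and without an intensity trend it called AT2G37130 and AT1G12080 alone. Leaving out any 1 of the 4 arrays at 22 °C, which do not enter the estimates at 26 °C, also left 0 calls (adjusted p 0.16 for AT5G61820 to 0.212 for AT3G49790), the fit then having 1 residual degree of freedom. The estimates themselves were the same in these settings. Without the as2-1 array at 26 °C, ATL8, AT3G12710 and AT3G49790 were not called (adjusted p 0.111, 0.169 and 0.457), nor were they without the as2-1 rh10-1 array at 26 °C (0.134, 0.149 and 0.503).

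With a lower bar of 1.5-fold in both backgrounds at 26 °C, rh10-1 went with a higher signal in 6 members, where 3.75% of all tested had one, and with a lower one in 4, where 4.06% had one. Besides the 4 called genes, the higher ones were AT1G80180 and AT1G67865. AT1G80180 had 856.8 in as2-1 rh10-1, 443.6 in as2-1, 450.8 in rh10-1 and 255.2 in Col-0. Like ATL8, it was near to additive on the log2 scale, with a departure of 0.13.

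The as2-1 effect at 26 °C was mostly upward in sign. Signals were higher with as2-1 in both backgrounds for 27 of the 40 genes, where 29.1% of all tested were, and lower in both for 2, where 30.8% were. At 1.5-fold in both backgrounds, 9 members were higher, where 1.63% of all tested were, and 0 were lower, where 1.83% were. The 9 were AT1G62510, AT1G66760, AT1G80180, AT2G14900, AT2G15880, AT2G15960, AT3G49790, AT5G40450 and AT5G57340. By comparison rh10-1 went with higher signals in both backgrounds for 25 genes and with lower ones for 10, where 31.4% and 31.1% of all tested did.

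AT2G14900 had the smallest p among the as2-1 effects. Its signals at 26 °C were 1973.1 in as2-1 rh10-1, 3186.2 in as2-1, 958.2 in rh10-1 and 1585.8 in Col-0, so that as2-1 and rh10-1 went in opposite directions and the double mutant was close to Col-0. The as2-1 effect was 1.02 ± 0.184 (SE, limma adjusted p = 0.116), and the rh10-1 effect -0.71 had an adjusted p of 0.0704. At 22 °C the rh10-1 mutation also stood lower in both backgrounds, with 202.1 in as2-1 rh10-1 against 401.6 in as2-1, and 176.8 in rh10-1 against 320.8 in Col-0 (effect -0.93, limma adjusted p = 0.0873).

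AT2G15960 separated by as2-1 alone. It had 4419.1 in as2-1 rh10-1 and 3993.0 in as2-1 at 26 °C, against 2077.7 in rh10-1 and 2005.0 in Col-0. Its as2-1 effect was 1.04 (limma adjusted p = 0.21). AT1G66760 had the same form, with 283.2 in as2-1 rh10-1 and 308.6 in as2-1, against 131.1 in rh10-1 and 156.1 in Col-0, and it kept that form at 22 °C (as2-1 effect 1.05). AKINBETA1, the SnRK1 subunit, had 1459.8 in as2-1 rh10-1 and 1935.6 in as2-1, against 1031.7 in rh10-1 and 1178.2 in Col-0, and its as2-1 effect of 0.61 had an adjusted p of 0.281.

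In some members the double mutant was higher than the single mutants added up to. The departure of as2-1 rh10-1 from the sum of the single mutants at 26 °C had a median of 0.11 over the members, against -0.02 over all tested. At 22 °C it had a median of 0.58, against 0.05 over all tested, and of 0.15 with a floor of 50. In the warm it was largest in AT1G52100 (3.25), which had 513.1 in as2-1 rh10-1, 169.5 in as2-1, 101.1 in rh10-1 and 317.7 in Col-0. Here each single mutant was below Col-0 and the double mutant above it. The departure of AT2G37130 was 2.03, and at the other end stood AT1G12080 (-1.79) and AT4G38540 (-1.01). AT4G38540 was highest in rh10-1, at 316.2, with 192.1 in as2-1 rh10-1, 157.2 in as2-1 and 128.7 in Col-0.

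In a further group the single mutants lay nearer to Col-0 than the double mutant did. AT5G42680 had 606.6 in as2-1 rh10-1, 268.4 in as2-1, 301.9 in rh10-1 and 221.6 in Col-0. AT4G05150 had 3278.7 in as2-1 rh10-1, 1703.9 in as2-1, 1865.4 in rh10-1 and 1529.6 in Col-0. AT1G32700 had 738.1 in as2-1 rh10-1, 424.0 in as2-1, 395.3 in rh10-1 and 358.4 in Col-0. In each of these the double mutant was at least 2-fold above Col-0 and neither single mutant was. AT2G15880 had 412.7 in as2-1 rh10-1, 198.9 in as2-1, 133.1 in rh10-1 and 103.8 in Col-0, so that as2-1 alone was already close to 2-fold above the wild type. AT3G20340 had 289.4 in as2-1 rh10-1, 155.2 in as2-1, 105.1 in rh10-1 and 106.6 in Col-0. Both genes had signals under 10 at 22 °C.

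A few members differed little between genotypes. The log2 range between the 4 genotypes at 26 °C had a median of 1.17 over the members, against 0.601 over all tested, and reached 1 or more in 24 members, where 19.6% of all tested did. It was under 0.5 in 4 members, AT1G15400, AT5G63190, AT1G75800 and AT1G19540, where 37.7% of all tested were under it. AT1G15400 was the steadiest, at 1223.6 in as2-1 rh10-1, 1239.5 in as2-1, 1132.7 in rh10-1 and 1208.2 in Col-0. At 22 °C it had 241.6 in as2-1 rh10-1, 215.3 in as2-1, 211.3 in rh10-1 and 279.7 in Col-0, so that its temperature ratio was similar in all genotypes as well.

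The remaining members were intermediate. AT1G26665 had 3979.6 in as2-1 rh10-1, 2931.0 in as2-1, 3377.7 in rh10-1 and 2010.9 in Col-0. AT5G16110 had 3739.5 in as2-1 rh10-1, 2873.4 in as2-1, 2265.3 in rh10-1 and 2121.0 in Col-0. In both the wild type was the lowest and the double mutant the highest. AT1G22890 had 1585.1 in as2-1 rh10-1, 1552.7 in as2-1, 789.0 in rh10-1 and 1065.9 in Col-0, a separation by as2-1. AT2G39400 had 182.2 in as2-1 rh10-1, 145.8 in as2-1, 144.1 in rh10-1 and 103.8 in Col-0, with all 3 mutants above the wild type.

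AT1G21680 and AT2G26210 were higher with rh10-1 in both backgrounds. AT1G21680 had 1891.7 in as2-1 rh10-1 and 2222.7 in rh10-1 at 26 °C, against 1374.2 in as2-1 and 1113.0 in Col-0, and AT2G26210 had 490.3 in as2-1 rh10-1 and 502.0 in rh10-1, against 362.8 in as2-1 and 301.8 in Col-0. AT3G24100 ran the other way, with 552.3 in as2-1 rh10-1 and 504.8 in rh10-1, against 881.7 in as2-1 and 735.1 in Col-0. AT1G62510 had 243.9 in as2-1 rh10-1, 342.6 in as2-1, 142.9 in rh10-1 and 200.1 in Col-0, so that it was higher with as2-1 and lower with rh10-1. In AT3G60300, AT1G26800 and AT3G01520 the double mutant was the highest of the 4, by log2 ratios to Col-0 of 0.66, 0.55 and 0.43. AT5G57340, 1 of the 9 genes higher with as2-1, had 753.4 in as2-1 rh10-1, 584.9 in as2-1, 440.4 in rh10-1 and 289.2 in Col-0, and AT5G40450 had 1380.4 in as2-1 rh10-1, 1144.7 in as2-1, 864.2 in rh10-1 and 742.2 in Col-0.

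The members were low at 22 °C, and their ratios between genotypes depended on the floor. The median log2 ratio to Col-0 was 0.13 for as2-1 rh10-1, -0.09 for as2-1 and -0.25 for rh10-1, where the medians over all tested lay between -0.06 and -0.02. With a floor of 50 the members' medians were 0 for as2-1 rh10-1, 0 for as2-1 and -0.01 for rh10-1. Signals were above Col-0 for 23 genes in as2-1 rh10-1, for 18 in as2-1 and for 10 in rh10-1, and rh10-1 was the lowest genotype for 18 of the 40 genes, where it was for 30.3% of all tested. The median ratio of the double mutant to rh10-1 was 0.48 and that to as2-1 was 0.29, against 0.01 and 0.02 over all tested.

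In the double mutant at 22 °C, 7 members were at least 2-fold above Col-0 (AT1G25230, AT2G37130, AT3G49790, AT3G52480, AT1G66760, AT2G15880 and AT1G32700), where 3.55% of all tested were, and 2 were at least 2-fold below (AT1G67865 and AT1G12080), where 2.46% were. In rh10-1, 0 were above, where 3.64% were, and 5 were below (AT1G67865, AT5G40450, AT1G62510, AT1G12080 and AT1G19540), where 3.37% were. In as2-1, 3 were above (AT1G52100, AT1G66760 and AT3G49790), where 1.29% were, and 2 below (AT1G67865 and AT1G12080), where 0.953% were. The members reached 100 through their signals at 26 °C, so nothing is read from these counts against the percentages at 22 °C. With a floor of 50 the members at least 2-fold above Col-0 numbered 2 for the double mutant and 0 for each single mutant, and those below numbered 2 for the double mutant, 2 for as2-1 and 3 for rh10-1. No member was called by limma at 22 °C for as2-1 (0.0922% of all tested higher, 0.0% lower) or for rh10-1 (0.338% higher, 0.0615% lower). At an unadjusted p under 0.05, 9 members were higher and 0 lower with as2-1, where 2.72% and 1.25% of all tested were. With rh10-1, 3 were higher and 5 lower, where 7.84% and 6.82% were.

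AT1G25230 had the largest difference of the double mutant at 22 °C. It had 249.1 in as2-1 rh10-1 and 83.6 in rh10-1, with 138.2 in as2-1, against 75.0 in Col-0. In the warm that order was gone, with 1603.2 in as2-1 rh10-1, 1896.7 in as2-1, 827.1 in rh10-1 and 1542.7 in Col-0. AT5G40450 was low in rh10-1 alone at 22 °C, with 42.5 there, 131.8 in as2-1 rh10-1, 146.5 in as2-1 and 139.3 in Col-0. AT1G19540 likewise had 14.7 in rh10-1, 45.1 in as2-1 rh10-1, 33.2 in as2-1 and 39.7 in Col-0. Each of these low values rests on the 1 rh10-1 array.

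Differences of the double mutant that passed 2-fold at both temperatures in the same direction were found in 6 members. AT2G37130, AT3G49790, AT2G15880, AT3G52480 and AT1G32700 were higher than Col-0, and AT1G12080 was lower. AT3G52480 had 241.0 in as2-1 rh10-1, 106.6 in as2-1, 149.6 in rh10-1 and 101.7 in Col-0 at 26 °C, and 28.3 in as2-1 rh10-1, 17.7 in as2-1, 8.8 in rh10-1 and 9.6 in Col-0 at 22 °C. AT3G49790, AT1G12080 and AT1G32700 had all their signals above 10. AT1G32700 had 102.0 in as2-1 rh10-1, 69.2 in as2-1, 69.9 in rh10-1 and 48.7 in Col-0 at 22 °C.

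AT1G67865 turned round with temperature. At 26 °C it had 2232.5 in as2-1 rh10-1, 828.4 in as2-1, 2296.2 in rh10-1 and 1123.7 in Col-0, and both arrays with rh10-1 were the highest. At 22 °C it had 90.0 in as2-1 rh10-1, 104.3 in as2-1, 61.0 in rh10-1 and 249.4 in Col-0. All 3 mutants were thus under Col-0 at 22 °C, and the signal of rh10-1 was the lowest of the 4. The rh10-1 effect over both backgrounds was 1.23 at 26 °C (limma adjusted p = 0.0947) and -1.12 at 22 °C (limma adjusted p = 0.206), and neither passed the threshold.

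The temperature ratio itself, which chose the genes and is not tested, was smaller in Col-0 than in the mutants. The median log2 ratio of 26 °C to 22 °C was 3.16 (8.94-fold) in as2-1 rh10-1, 3.0 (8.02-fold) in as2-1, 3.17 (8.98-fold) in rh10-1 and 2.68 (6.41-fold) in Col-0. The excess over Col-0, gene by gene, had a median of 0.56 for as2-1 rh10-1, 0.38 for as2-1 and 0.51 for rh10-1. Over all tested these medians were between -0.02 and 0.04. Those probe sets were not chosen by this ratio as the members were, so nothing is read from the contrast. The smallest of the 4 ratios was that of Col-0 for 23 of the 40 genes, that of as2-1 for 6, that of rh10-1 for 6 and that of as2-1 rh10-1 for 5.

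The likeness of the 3 mutants in this ratio depended on the floor. With signals under 50 set to 50, the median log2 ratio was 3.12 in as2-1 rh10-1, 2.71 in as2-1, 2.61 in rh10-1 and 2.28 in Col-0, so that Col-0 was still the lowest but the mutants stood apart. The largest ratio of any member was that of AT2G37130 in rh10-1 (6.62), followed by the same gene in the double mutant (6.16), and both rest on signals at 22 °C near the floor. Among members without a signal under 10, the largest was 5.52, for AT1G12080 in as2-1. AT1G22890 had ratios of 4.67 in as2-1 rh10-1, 4.72 in as2-1, 4.35 in rh10-1 and 4.03 in Col-0, and it was the only member above 4 in every genotype.

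**Figure D4:**
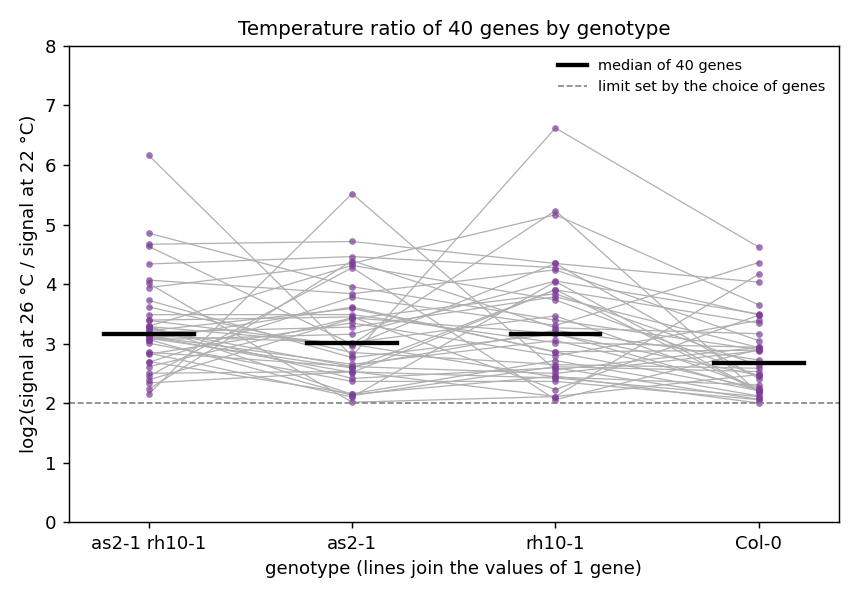
Log2 ratio of the signal at 26 °C to that at 22 °C (vertical axis) of the 40 genes in each genotype, with grey lines joining the values of 1 gene, black bars for medians and a dashed line at the limit of 2 set by the choice. The medians are 3.16 in as2-1 rh10-1, 3.0 in as2-1, 3.17 in rh10-1 and 2.68 in Col-0, and single genes cross widely.

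The 4 annotated members did not share a pattern across genotypes. ATG8B had 436.8 in as2-1 rh10-1, 330.4 in as2-1, 395.5 in rh10-1 and 303.2 in Col-0 at 26 °C, and 77.1 in as2-1 rh10-1, 57.1 in as2-1, 91.5 in rh10-1 and 54.3 in Col-0 at 22 °C. Its double mutant ratio was 0.53 in the warm and 0.51 at 22 °C. ATL8 was higher with each mutation in the warm, AKINBETA1 with as2-1, and EXPA8 was high in as2-1 and lower in both genotypes with rh10-1.

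Of 27 genes known to respond to darkness and low sugar, which include targets of SnRK1, 8 were measured, and 0 were members. Their median log2 ratio to Col-0 at 26 °C was 0.99 for as2-1 rh10-1, 0.51 for as2-1 and 0.38 for rh10-1. In as2-1 rh10-1, 4 of the 8 exceeded Col-0 by 2-fold or more, where 5.69% of all tested did. As far below it were 0, where 5.87% of all tested were. BZIP53 went down, with 837.6 in as2-1 rh10-1 against 1120.1 in Col-0, and D2HGDH had 116.4 against 91.4. MCCA, a subunit of an enzyme of leucine breakdown, had 1300.7 in as2-1 rh10-1 and 431.6 in rh10-1, with 733.4 in as2-1, against 330.0 in Col-0 at 26 °C, with 116.1 to 148.4 at 22 °C. ATG8E, another autophagy gene of the ATG8 family, had 551.7 in as2-1 rh10-1, 387.7 in as2-1, 322.1 in rh10-1 and 233.7 in Col-0. At 22 °C the list's medians were -0.35 for as2-1 rh10-1, -0.31 for as2-1 and -0.67 for rh10-1. The list's medians were thus ordered as those of the members at 26 °C, and its part in their differences was not tested. The list was written with earlier results of these data known.

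Other lists had little to set beside the members, because few of their genes could be matched to a probe set in the annotation used here. Unmatched genes may still be on the array. Of 20 genes of warm growth and shade elongation, 1 was measured (IAA29, at 1.7 to 55.1), and of 18 heat shock genes 4 were, at 0.7 to 65.8, so that the measured heat shock genes stayed low on all 8 arrays. Of 25 clock genes 1 was measured, GI, a regulator of clock period and flowering time, with 103.6 in as2-1 rh10-1, 420.4 in as2-1, 183.8 in rh10-1 and 482.8 in Col-0 at 26 °C. Of 19 genes of water and cold stress 5 were measured, and those tested went both ways at 26 °C. DI21 had 5893.7 in as2-1 rh10-1, 1321.2 in as2-1, 3882.4 in rh10-1 and 1328.6 in Col-0, whereas COR15B, a chloroplast protein of cold acclimation, had 30.6 in as2-1 rh10-1, 74.2 in as2-1, 52.2 in rh10-1 and 73.7 in Col-0. Of 16 genes of flowering 0 were measured. None of the measured genes on the 6 lists was a member. Unmatched genes could not be members, and GI was among the genes left out by name, so nothing is read from this. The expanded-leaf markers, RCA, LHCB4.1 and LHCB4.2, had a median log2 ratio of as2-1 rh10-1 to Col-0 of -0.18 at 26 °C and 0.38 at 22 °C. The tested apex and primordium markers were YAB3 and PHV. Their median log2 ratio to Col-0 at 26 °C was -0.66 for as2-1 rh10-1, -0.38 for as2-1 and -0.21 for rh10-1. The order of these medians was that of the members' medians with the opposite sign. PHV ran in that order, with 214.2 in as2-1 rh10-1, 337.3 in as2-1, 397.1 in rh10-1 and 410.3 in Col-0 at 26 °C. YAB3 did not, with 287.8 in as2-1 rh10-1, 270.0 in as2-1, 288.5 in rh10-1 and 374.0 in Col-0. The order of PHV rests on 1 array per genotype. By replicated RT-PCR on shoot apices grown in the warm, the paper reports no significant difference in PHV transcripts between mutants and wild type. UFO, too low to be tested, had 56.5 in as2-1 rh10-1 and 16.8 in Col-0. CLV3, also too low, had 4.0 and 11.8. The part of these markers in the members' differences was not tested. In these samples of whole apices, fewer cells of a type and less RNA per cell cannot be told apart.

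The genes that were 4-fold higher at 22 °C in every genotype under the same rule, 23 in number, differed from the members in the double mutant. Their median log2 ratio of as2-1 rh10-1 to Col-0 was -0.47 in the warm and -0.44 at 22 °C, against 0.73 and 0.13 for the members. In as2-1 at 26 °C it was -0.33, against 0.37, and in rh10-1 0.00, against 0.18. Many of these genes are near background at 26 °C, where their median signal was 25.5 in as2-1 rh10-1 and 57.3 in Col-0, so that their ratios there are less certain. The difference between the 2 sets was not tested.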

How the data were processed

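RNA of shoot apices was labelled with biotin and hybridised to 8 Affymetrix ATH1 arrays. The deposited intensity values are linear signals, computed by the authors with the Affymetrix GCOS software and scaled between arrays to a target not given in the sources used here. The trimmed means of the arrays were 198.1 to 198.4. Signals under 10 were set to 10 and log2 was taken, with no further scaling. Probe sets were named through the platform annotation, in which 13513 of 22746 had exactly 1 gene. Of the 40 members, 39 matched RefSeq (assembly TAIR10.1) by gene ID. Detection calls were not used here.

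Tested probe sets had 100 or more on at least 1 array (6506). Ratios of each mutant to Col-0 were counted beyond 2-fold. With limma 3.58.1 in R 4.3.3 (eBayes with an intensity trend, Benjamini-Hochberg over all 6506, threshold 0.05), a first fit to the 8 arrays held genotype and temperature (3 residual degrees of freedom), and a second held as2-1, rh10-1, temperature and both interactions (2 residual degrees of freedom). P-values are for the mutant terms of these fits. Since no condition was repeated, their error comes from departures from the models. These are genotype by temperature differences in the first fit and departures from additivity in the second. Every member could be named, as the set held 40. The members and the gene lists were chosen with earlier results of these data known. Procedures were tested on simulated data. Other work used Python 3.11.15, numpy 2.4.6, pandas 2.3.3 and matplotlib 3.10.9. The alternatives were quantile normalization, median centring, a floor of 50 or none, no filter, a background of probe sets with 100 or more on all arrays at 26 °C, no intensity trend and leaving out each array.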

Additional observations from a re-analysis of the deposited data

Results flagged for a closer look

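The rh10-1 effect on AT1G67865 had opposite signs at the 2 temperatures in both backgrounds. It was 1.23 on the log2 scale at 26 °C (1.03 against Col-0 and 1.43 against as2-1) and -1.12 at 22 °C (-2.03 and -0.21), a difference of 2.35. The difference was not tested, since the temperature ratio of each genotype was used to choose the gene. The effect had opposite signs in both backgrounds in 8 of the 40 members for rh10-1, and AT1G67865 was the 1 among them that reached 1.5-fold in both backgrounds at 26 °C. For as2-1 the signs were opposite in 1 member. Over all tested probe sets, rh10-1 went with higher signals in both backgrounds in 31.4% at 26 °C and 29.7% at 22 °C. It went with lower ones in 31.1% and 32.7%. The share of all tested with opposite signs was not counted, so nothing is read from the counts in the members.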

How the results depend on the processing

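Under quantile normalization and under median centring 32 genes met the rule, with a floor of 50 30 did, and with no floor 40 did. Of the other results, as2-1 at 26 °C had 5 members at least 2-fold higher with quantile normalization and 5 with median centring. With a floor of 50, 0 members were 2-fold higher in as2-1 at 22 °C, 3 lower in rh10-1 and 2 higher in as2-1 rh10-1, and the median temperature ratio in rh10-1 was 2.61, since many signals at 22 °C lie under that floor. For rh10-1 at 26 °C limma called 0 members higher and 0 lower with no filter on signal, and 1 higher and 1 lower without an intensity trend. EXPA8 was called with median centring and with the floor of 50.

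Leaving out 1 array at a time, the members called ranged over 0 to 8 higher and 0 to 3 lower for rh10-1 at 26 °C, 0 to 4 higher for as2-1 at 26 °C, 0 to 3 higher for as2-1 at 22 °C, 0 to 4 lower for rh10-1 at 22 °C, and 0 to 2 higher for as2-1 rh10-1 over both temperatures. Those 2, AT3G49790 and AT1G80180, passed when the double mutant array at 22 °C was left out. The counts of 0 for rh10-1 at 26 °C arose without any 1 array at 22 °C. Without an array at 26 °C the within-temperature fit took its spread from the trend alone, and its larger counts are no measure of evidence. Median centring moved the median over all tested probe sets of rh10-1 to Col-0 at 22 °C to 0.07, where it was -0.06 as deposited. In all, 33 alternative values, which are counts and medians over the set, were labelled as moved and 249 as staying. Counts within 1.5-fold of the main count were labelled as staying, so the label does not mean unchanged. It covered the set of 40 falling to 32 and to 30. It also covered the double mutant's 12 higher genes at 26 °C becoming 15 with median centring. The median departure from additivity at 22 °C had it too, at 0.58 and, with a floor of 50, at 0.15. The signs of single-gene effects were not part of this tally, and some changed. The rh10-1 effect on AT1G52100 at 26 °C was -1.652 without the as2-1 array at 26 °C and 1.598 without the Col-0 array. The as2-1 effect on AT1G12080 at 26 °C was 1.439 without the rh10-1 array at 26 °C and -0.3529 without the Col-0 array. No paired analysis was possible because each condition had 1 array.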
